A study of Mus musculus with 6 samples.

Results

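The heat shock proteins and chaperones examined here are 10 genes, picked by symbol from the 22081 genes of an RNA-seq table. The RNA came from muscle stem cells (MuSCs), which lie quiet beside the fibers of skeletal muscle and rebuild them after injury, sorted fresh from the tissue. All 10 were in the table and passed the filter on low values, a mean of at least 5 over the libraries. They fall into 6 genes known to be inducible by heat and protein damage (Hspa1a, Hspa1b, Hspb1, Dnajb1, Hsph1 and Hsp90aa1), 3 chaperones known as constitutive (Hspa8, Hsp90ab1 and Hspd1) and the regulator Hsf1. Control MuSCs (labelled WT in the titles and Control as genotype) were compared with Taf4asKO MuSCs, with 3 libraries per group, both on the C57BL/6 strain. According to the study's methods, Taf4asKO mice are homozygous for a floxed allele of Taf4 (formerly Taf4a) and carry a Cre, active after tamoxifen, that the Pax7 locus expresses in MuSCs. Its controls were littermates with the same floxed alleles, with or without the Cre. Whether the controls of these libraries carried the Cre or received tamoxifen is not given per library, so effects of either cannot be told apart from those of the deletion. The mice were adults of both sexes, and the labels give no age or sex per library and do not say how many animals went into one. Cells were released from minced limb and trunk muscle with Dispase and collagenase, depleted of SCA1+, CD31+ and CD45+ cells and sorted for integrin alpha 7 or for a Pax7 reporter.

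Chaperones bind unfolded protein chains and help them to reach or regain their fold. Members of the HSP70 family do so in cycles of ATP hydrolysis that are started by J-domain proteins such as DNAJB1 and reset by nucleotide exchange factors such as HSPH1, while HSP90 proteins act later on kinases, receptors and other clients, and small heat shock proteins such as HSPB1 hold unfolded chains without using ATP. Heat shock factor 1, encoded by Hsf1, is kept inactive by chaperones in unstressed cells. When unfolded protein accumulates it forms trimers and binds heat shock elements, inverted repeats of the unit GAA, upstream of inducible genes. In MuSCs, enzymatic release from muscle is known to induce heat shock genes and early response genes such as Fos and Jun before the RNA is collected.

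The sequence upstream of inducible genes is shown for the 3 that were lower in Taf4asKO (Hspa1a, Hspa1b and Hsph1) and, for contrast, for Hspb1 and Dnajb1, which did not pass the threshold. RefSeq promoters (GRCm38.p6, the mm10 assembly) were found for 6 of the 10 members, these 5 and Hspd1, and no entry was found for Hsp90aa1, Hspa8, Hsp90ab1 and Hsf1. Each line gives the 120 bases before the transcript start that RefSeq annotates on the strand of the gene, with matches to GAANNTTC or TTCNNGAA, both arrangements of 2 heat shock units, in capitals:
Hspa1a: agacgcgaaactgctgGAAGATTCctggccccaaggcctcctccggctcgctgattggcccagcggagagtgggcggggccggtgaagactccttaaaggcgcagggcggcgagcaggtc
Hspa1b: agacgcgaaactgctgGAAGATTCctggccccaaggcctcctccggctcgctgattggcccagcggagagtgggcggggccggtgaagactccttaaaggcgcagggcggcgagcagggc
Hsph1: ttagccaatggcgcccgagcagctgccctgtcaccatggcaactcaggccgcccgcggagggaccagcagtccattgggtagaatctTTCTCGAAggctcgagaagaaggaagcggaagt
Hspb1: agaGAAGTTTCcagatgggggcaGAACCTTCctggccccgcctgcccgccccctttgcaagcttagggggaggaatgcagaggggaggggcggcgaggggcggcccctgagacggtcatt
Dnajb1: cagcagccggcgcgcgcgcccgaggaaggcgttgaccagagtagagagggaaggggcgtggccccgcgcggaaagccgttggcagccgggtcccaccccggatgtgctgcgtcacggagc
These windows are chr17:34972157-34972276 (minus strand) for Hspa1a, chr17:34959239-34959358 (minus strand) for Hspa1b, chr5:149636337-149636456 (minus strand) for Hsph1, chr5:135887799-135887918 (plus strand) for Hspb1 and chr8:83608055-83608174 (plus strand) for Dnajb1.

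Hspa1a and Hspa1b were identical at 119 of the 120 bases shown and at 247 of the 250 bases before the start. Counted from the transcript start, both held GAANNTTC at -104 to -97, Hspb1 held it at -117 to -110 and at -97 to -90, and Hsph1 held TTCNNGAA at -33 to -26. Dnajb1 and Hspd1 held neither in 250 bases, and none of the 6 held the 3-unit form GAANNTTCNNGAA. Searched on both strands in the 250 bases before 27025 genes, 1 promoter each, GAANNTTC was found in 6.78%, TTCNNGAA in 7.10% and GAANNTTCNNGAA, which holds both shorter ones, in 0.400%. The CCAAT motif, the recognition sequence of NF-Y, was present once before Hspa1a, Hspa1b and Dnajb1 and at 2 places before Hsph1, against 34.5% of all promoters, and TATAAA was present before none of the 6, against 13.0%. Members past and short of the threshold thus both held 2-unit matches, which are descriptions of these windows and not bound sites.

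Levels are normalized counts, the reads over the exons of a gene divided by a factor for the depth of the library and rounded by the authors. Their total per library lay between 12338676 and 14551732. Mitochondrial genes took 11.1% (replicate 1) to 20.7% (replicate 2) of it in control and 13.5% to 19.0% in Taf4asKO. In the genes examined here Taf4asKO replicate 1 stood above the other libraries of its group, and results without it are given below. Libraries of one group differed by more than counting noise (4.17 to 46.6 as chi-square over degrees of freedom), and all 6 entered as separate samples. Taf4, whose gene-level value sums all exons including those that are not deleted, was measured at 613, 534 and 478 normalized counts in the control libraries and at 631, 565 and 574 under the Taf4asKO label (limma log2 fold change 0.13, adjusted p 0.524), so it does not check the labels, and directions below are relative to the groups as labelled. The 8 MuSC markers (Pax7 and Itga7 among them) were present in every library. Pax7, which defines MuSCs, had 12082 to 13007 in control and 10363 to 11164 in Taf4asKO, lower in every Taf4asKO library but not past the threshold (adjusted p 0.161). The 8 summed to 35925 to 37449 in control and 36906 to 39879 in Taf4asKO, a sum in which changes of opposite direction offset each other, since Myf5 (log2 fold change -0.85), Itga7 (-0.43) and Cdh15 (-0.52) fell and Vcam1 (0.74) and Sdc4 (0.88) rose past the threshold given below. Summed markers of Schwann cells (4 genes, 993 to 2356 in control and 2746 to 3250 in Taf4asKO) and endothelial cells (5 genes, 878 to 1271 and 1382 to 1682) were higher in every Taf4asKO library. Past the threshold were 3 Schwann cell markers and 0 endothelial ones (3 at an unadjusted p under 0.05, 0 in limma-voom), and with a block for the replicate number 3 and 2 (Cdh5 and Kdr). The mural markers (4 genes) summed to 8295 to 12870 and 12607 to 14527, higher in Taf4asKO within each number, and Rgs5 (1.06, adjusted p 0.0185) and Myh11 (0.69, adjusted p 0.0388) rose, with the block Kcnj8 as well, while the abundant Acta2 was at -0.31 (adjusted p 0.365). The sums of myofibers (5 genes, 1059 to 3415 and 1965 to 2520), erythroid cells (4 genes, 41 to 212 and 70 to 138) and fibro-adipogenic progenitors (6 genes, 53301 to 79195 and 33227 to 55257) overlapped. The sum of the last was lower in Taf4asKO within each number. Of the last list Col3a1 fell, and the other 5 had higher means in Taf4asKO, of which 0 passed without the block (2 at an unadjusted p under 0.05) and 4 with it (Pdgfra, Dcn, Col1a1 and Lum). Ly6a, the gene of the depleted SCA1, had 2 to 14 normalized counts. Of 5 immune markers, Cd68 (114 to 294) and Csf1r (16 to 34) were in the table and summed to 131 to 328 in control and 195 to 201 in Taf4asKO. The part of these cells in the results below was not tested, and in bulk samples fewer cells of a type and less RNA per cell cannot be told apart.

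The sequence of a chaperone gene sets how much of it could be counted, since the authors removed reads that map to several places. In windows of 75 bases, the read length of the study, along the longest coding transcript of each member, 61.7% of the windows of Hspa1a and 55.8% of those of Hspa1b also occurred exactly in a transcript of another gene of GENCODE M21. Of these, 1524 windows were common to both genes, which encode near-identical inducible HSP70 proteins. Windows found in no other gene numbered 1108 for Hspa1a and 1205 for Hspa1b. Gm20481, among the genes that share windows with Hspa1a, overlaps it at the same locus. A window common to both may thus still have a single place in the genome, and the count for Hspa1a may be too low. Hspa8 shared 68.6% of its windows with 11 other genes, Hsp90aa1 shared 53.1%, Hspb1 47.3% and Hspd1 33.7%. Hsp90ab1 shared 0.736%, and Dnajb1, Hsph1 and Hsf1 shared 0 windows. Levels of the first 6 genes may therefore be underestimated relative to the last 4, while the comparison of the same gene between groups uses the same windows in each library.

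**Figure D1:**
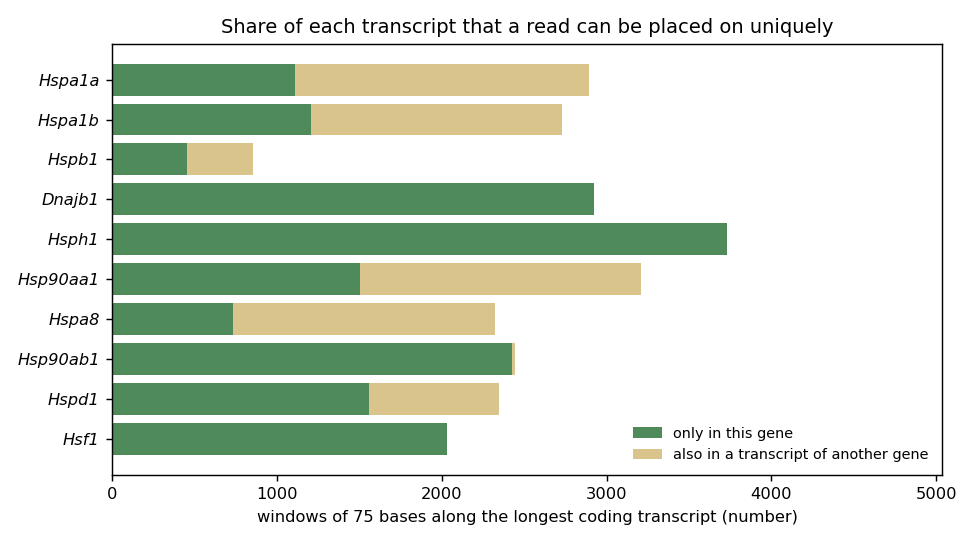
The horizontal axis gives the number of 75-base windows along the longest coding transcript of each member, with windows found only in that gene in green and windows also found in a transcript of another gene in sand. Hspa1a, Hspa1b, Hsp90aa1 and Hspa8 share more than they keep, and Dnajb1, Hsph1 and Hsf1 share 0.

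The comparison asked how transcripts of inducible and constitutive chaperones differ when Taf4 is inactivated in MuSCs. Of the 10 members, 4 fell past the threshold and 0 rose. These were the inducible HSP70 genes Hspa1a (2.87-fold lower) and Hspa1b (3.08-fold lower), the HSP110 gene Hsph1 (2.02-fold lower) and the constitutive HSP90 gene Hsp90ab1 (1.46-fold lower). The other inducible genes Hspb1, Dnajb1 and Hsp90aa1, the constitutive Hspa8 and Hspd1 and the regulator Hsf1 did not pass. The threshold was a Benjamini-Hochberg adjusted p under 0.05 in limma over all 18562 genes tested, together with a change of 1.3-fold or more, up or down, on the log2(value + 1) scale, and 12.6% of all tested genes passed it, 6.71% as lower and 5.93% as higher. Values of all Taf4asKO libraries lay below those of all control libraries for the same 4 members. Groups were apart in this way for 33.0% of tested genes, 16.4% as lower and 16.6% as higher. The median log2 fold change was -0.28 over the members and 0.004 over all tested genes. At an unadjusted p under 0.05, and in limma-voom, the same count of 4 lower and 0 higher was found. The members were chosen with these results known, and the share of 4 in 10 is a description.

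**Figure D2:**
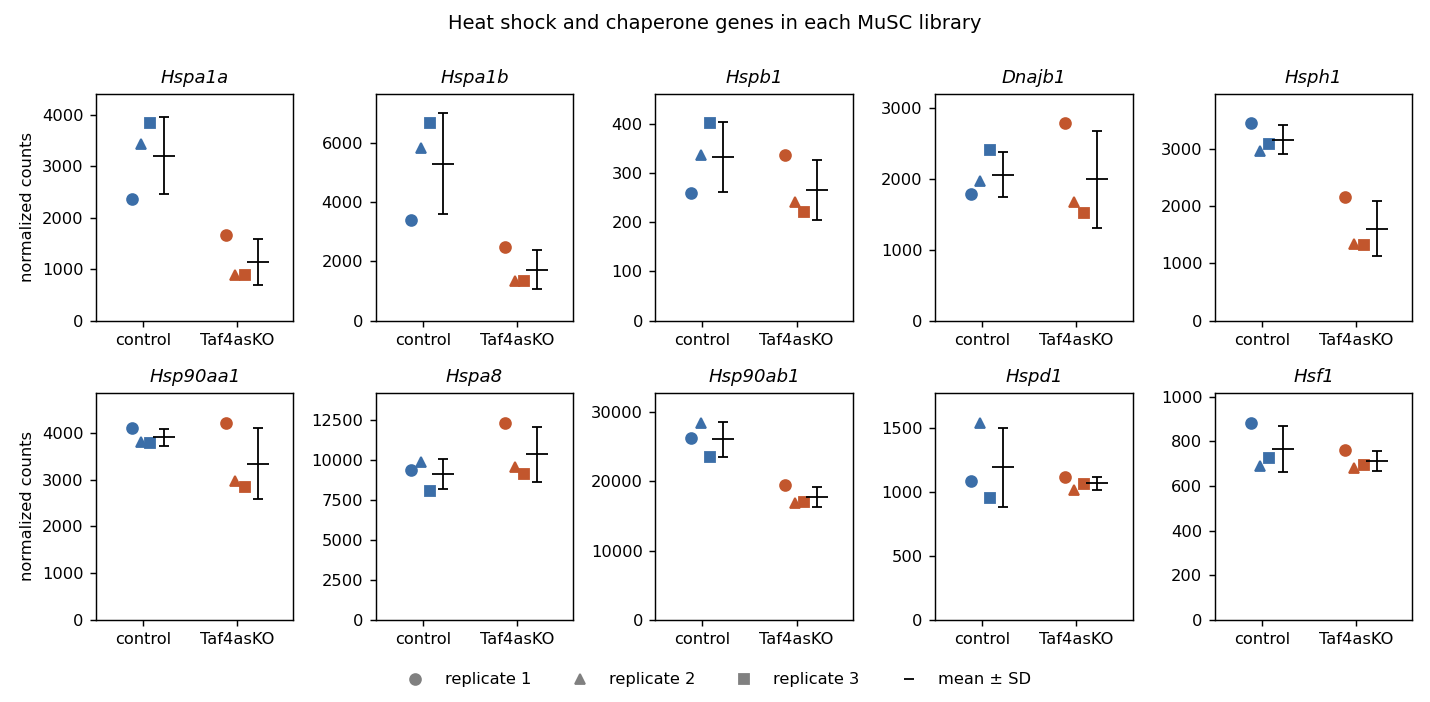
Each panel shows one member, with normalized counts on a vertical axis that starts at 0, control libraries in blue and Taf4asKO libraries in orange, replicates 1 to 3 as circle, triangle and square, and the mean with its SD (n = 3) as a bar. The groups are apart for Hspa1a, Hspa1b, Hsph1 and Hsp90ab1, and Taf4asKO replicate 1 is the highest of its group in all 10 panels.

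Hspa1a and Hspa1b encode the stress-inducible cytosolic HSP70. Hspa1a (ENSMUSG00000091971, mm10 chromosome 17, 34969190 to 34972156, minus strand, 1 exon) had 2370, 3427 and 3836 normalized counts in the control libraries and 1662, 895 and 886 in those of Taf4asKO. Each Taf4asKO library was below each control library, with the gap narrowest between the libraries numbered 1. The mean was 3211 ± 756 in control and 1148 ± 445 in Taf4asKO (SD, n = 3), and limma gave a difference of -1.52 on the log2 scale (SE 0.25, 95% interval -2.07 to -0.97, limma adjusted p 0.0039). Gm20481 overlaps 564 exonic bases of Hspa1a on the opposite strand, and the strand setting of the counting, which decides whether reads there were kept, is not given in the sources used here. Hspa1b (ENSMUSG00000090877, chromosome 17, 34956436 to 34959238, minus strand, 1 exon) had 3387, 5833 and 6664 normalized counts in the control libraries and 2477, 1347 and 1354 in those of Taf4asKO. As for Hspa1a, control replicate 1 was the lowest control, Taf4asKO replicate 1 was the highest of its group, and the groups did not overlap. Its log2 fold change was -1.62 (SE 0.28, 95% interval -2.23 to -1.01, limma adjusted p 0.00488). The ratio of Hspa1a to Hspa1b was 0.576 to 0.700 in control and 0.655 to 0.671 in Taf4asKO, and these ranges overlapped, with the mean log2 ratio higher in Taf4asKO by 0.10 (exact two-sided permutation test, p 0.4, n = 3 per group).

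Hsph1 (ENSMUSG00000029657, chromosome 5, 149614287 to 149636338, minus strand, 19 exon blocks), whose product HSP105 exchanges nucleotide on HSP70 and dissolves aggregates together with it, had 3448, 2961 and 3080 normalized counts in the control libraries and 2156, 1346 and 1323 in those of Taf4asKO. The control libraries differed little (coefficient of variation 8.03%), and in Taf4asKO replicate 1 was above the other 2, which were close to each other. The log2 fold change was -1.01 (SE 0.17, 95% interval -1.39 to -0.63, limma adjusted p 0.00496), from a mean of 3163 ± 254 to 1608 ± 474 (SD, n = 3). Hsph1 shared no window with another gene and overlaps no other gene, so among the inducible genes that fell it is the one free of limits on read placement.

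The other inducible members had overlapping groups. Hspb1 (ENSMUSG00000004951, chromosome 5, 135887919 to 135889563, plus strand), the small heat shock protein HSP25, had 259, 336 and 401 normalized counts in the control libraries and 336, 241 and 220 in those of Taf4asKO (log2 fold change -0.32, 95% interval -0.76 to 0.12, limma adjusted p 0.317). Dnajb1 (ENSMUSG00000005483, chromosome 8, 83608193 to 83612653, plus strand), the J-domain partner of inducible HSP70, had 1790, 1975 and 2411 in control and 2780, 1671 and 1524 in Taf4asKO (-0.09, 95% interval -0.55 to 0.37, adjusted p 0.817). Its highest and its lowest value were both in Taf4asKO libraries. Hsp90aa1 (ENSMUSG00000021270, chromosome 12, 110690605 to 110696395, minus strand), the inducible cytosolic HSP90, had 4109, 3805 and 3795 in control and 4224, 2967 and 2844 in Taf4asKO (-0.25, 95% interval -0.56 to 0.072, adjusted p 0.289). Taf4asKO replicates 2 and 3 were below all controls and replicate 1 was above them. The intervals of all 3 genes include falls past the fold limit of 1.3, while the whole interval of Hspa1a, Hspa1b and Hsph1 lies beyond it. Inducible members thus ranged from -1.62 to -0.09 on the log2 scale.

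**Figure D3:**
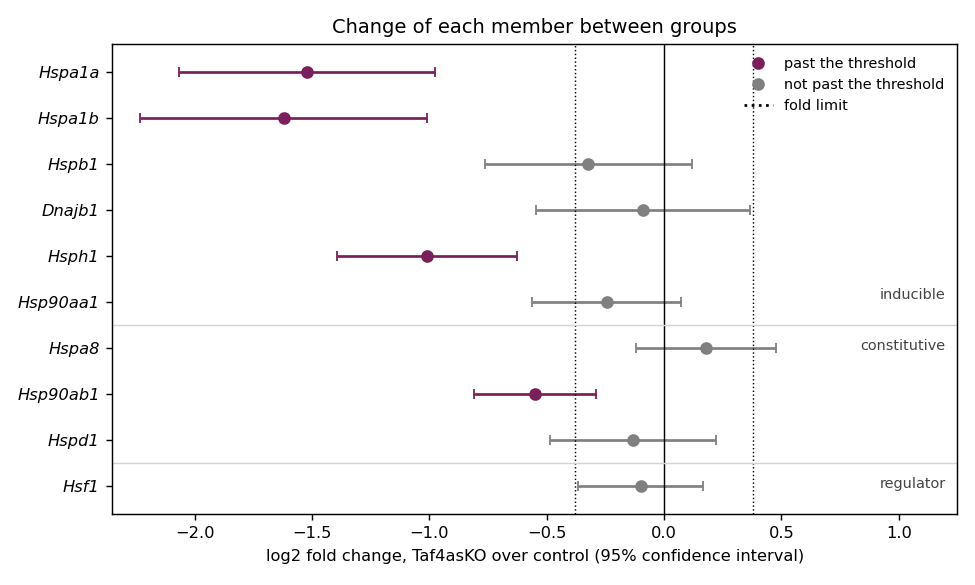
Points give the log2 fold change of each member, Taf4asKO over control, on the log2(value + 1) scale, with the 95% confidence interval of limma (n = 3 per group) as bars, and dotted lines mark the fold limit of 1.3. Hspa1a (-1.52), Hspa1b (-1.62), Hsph1 (-1.01) and Hsp90ab1 (-0.55) are past the threshold, and the intervals of the other 6 members include 0.

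Among constitutive chaperones the HSP90 gene fell and the HSP70 and HSP60 genes did not pass. Hsp90ab1 (ENSMUSG00000023944, chromosome 17, 45567775 to 45573271, minus strand), which encodes the cytosolic HSP90 of unstressed cells, had 26235, 28506 and 23469 normalized counts in the control libraries and 19423, 16898 and 17038 in those of Taf4asKO. All 3 Taf4asKO libraries were below the lowest control. The log2 fold change was -0.55 (SE 0.12, 95% interval -0.81 to -0.29, limma adjusted p 0.0135). It lost its call without Taf4asKO replicate 2 (-0.51, adjusted p 0.0841) and without Taf4asKO replicate 3 (-0.52, adjusted p 0.0766). Hspa8 (ENSMUSG00000015656, chromosome 9, 40800984 to 40805200, plus strand), the constitutive cytosolic HSP70 or HSC70, had 9384, 9880 and 8074 in control and 12362, 9605 and 9135 in Taf4asKO (0.18, 95% interval -0.12 to 0.48, adjusted p 0.414). Its groups overlapped, and Snord14c, Snord14d and Snord14e lie within the gene on the same strand. Hspd1 (ENSMUSG00000025980, chromosome 1, 55077835 to 55088024, minus strand), the mitochondrial chaperonin HSP60, had 1083, 1542 and 951 in control and 1116, 1018 and 1063 in Taf4asKO (-0.13, 95% interval -0.49 to 0.22, adjusted p 0.634). The control libraries spread more (SD 310.2 normalized counts) than the Taf4asKO libraries (SD 49.1). Hspd1 overlaps Hspe1, which is transcribed in the opposite direction, by 112 exonic bases.

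Hsf1 (ENSMUSG00000022556, chromosome 15, 76477445 to 76500972, plus strand), the transcription factor that drives the inducible genes, had 885, 690 and 728 normalized counts in the control libraries and 763, 680 and 696 in those of Taf4asKO. The groups overlapped (log2 fold change -0.10, 95% interval -0.36 to 0.17, limma adjusted p 0.629). A fall of Hsf1 mRNA as large as that of Hspa1a, Hspa1b or Hsph1 lies outside this interval. The activity of the factor is not measured by its mRNA. The related factors Hsf2 (log2 fold change 0.01, adjusted p 0.986), Hsf4 and Hsf5 and the HSF1-binding protein gene Hsbp1 (0.26, adjusted p 0.208) did not pass either (0 of 4 genes in limma and in limma-voom, and 0 at an unadjusted p under 0.05).

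Ratios within a library need no scaling between libraries. The summed normalized counts of Hspa1a and Hspa1b, the inducible HSP70 genes, were set against those of Hspa8, as log2 ratios. They were -0.70, -0.09 and 0.38 in control and -1.58, -2.10 and -2.03 in Taf4asKO. The ratio was lower in every Taf4asKO library than in every control, with a difference of the means of -1.76 (exact two-sided permutation test, p 0.1, the smallest that 3 against 3 allow, adjusted 0.15 over 3 ratios). Within the HSP90 pair the order was the opposite, with Hsp90aa1 at 0.157, 0.134 and 0.162 times Hsp90ab1 in control and 0.218, 0.176 and 0.167 times in Taf4asKO. The inducible gene thus had the larger share in all 3 Taf4asKO libraries, a log2 ratio higher by 0.31 (exact permutation p 0.1, adjusted 0.15, n = 3 per group), and by 0.19 without Taf4asKO replicate 1.

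Per kilobase of GENCODE M21 exon, Hsp90ab1 had the highest level of the members in control (8693 ± 841 normalized counts per kb, SD, n = 3), followed by Hspa8 (2119 ± 217), Hspa1b (1889 ± 608), Hspa1a (1082 ± 255), Hsp90aa1 (993 ± 45.4), Dnajb1 (643 ± 99.5), Hspd1 (451 ± 117), Hsph1 (435 ± 34.9), Hspb1 (322 ± 68.9) and Hsf1 (108 ± 14.6). Among these neighbours, Hspa8 and Hspa1b, Hspa1b and Hspa1a, Hspa1a and Hsp90aa1, Dnajb1 and Hspd1, and Hspd1 and Hsph1 overlapped over libraries. In Taf4asKO Hsp90ab1 (5931 ± 473) and Hspa8 (2410 ± 405) kept the first places, while Hspa1b (616 ± 232) came after Hsp90aa1 (851 ± 194) and Dnajb1 (622 ± 214), Hspa1a (387 ± 150) after Hspd1 (403 ± 18.6), and Hsph1 (221 ± 65.3) after Hspb1 (258 ± 60.0). Over the Taf4asKO libraries Hsp90aa1, Dnajb1 and Hspa1b overlapped with each other, as did Hspd1 with Hspa1a, Hspa1a with Hspb1, and Hspb1 with Hsph1. The exon length joins all annotated exons of a gene and differs from the longest coding transcript by unlike amounts. It was 7266 against 3802 bases for Hsph1, 4301 against 2394 for Hspa8 and 2803 in both for Hspa1b. The order between genes, the places of Hsph1 and Hspb1 included, thus depends on the length used. An order by transcript length was not made. The 9 chaperones other than Hsf1 together had 52065 to 58265 normalized counts in control and 35387 to 46536 in Taf4asKO. Within that sum Hsp90ab1 took 44.5% to 50.4% in control and 41.7% to 48.1% in Taf4asKO, Hspa8 15.3% to 18.0% and 25.8% to 26.7%, and Hspa1b 6.51% to 12.6% and 3.74% to 5.32%. The level of Hspa8 itself did not pass the threshold, so its larger share goes with the smaller sum.

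The libraries of the Taf4asKO group were not alike in these genes. Taf4asKO replicate 1 was the highest of its group for all 10 members, where the same held for 36.4% of all tested genes. In control no library stood apart in this way, with replicates 1, 2 and 3 the highest for 3, 3 and 4 members. Taf4asKO replicates 2 and 3 differed little, with 895 and 886 normalized counts for Hspa1a and 1346 and 1323 for Hsph1. Without Taf4asKO replicate 1 the falls were larger, with log2 fold changes of -1.82 for Hspa1a (limma adjusted p 0.00227), -1.91 for Hspa1b (0.00534) and -1.24 for Hsph1 (0.00124), and Hsp90aa1 passed as well (-0.42, adjusted p 0.0411), so that 5 members were lower and 0 higher. Of all tested genes 765 were lower and 484 higher in that fit, against 1246 and 1101 in the main one. Hspa1a, Hspa1b and Hsph1 passed in each of the 6 fits that left out 1 library.

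The pathway around the members was read from 8 lists of other chaperone and co-chaperone genes. Of 94 listed genes, 92 were in the table (Hspb3 and Aarsd1 were not analysed here) and all 92 were tested. Of these 5 fell, 4 rose and 83 did not pass, a share of 9.78% beside the 12.6% of all tested genes, and their median log2 fold change was 0.01. With upper-quartile scaling 7 were lower and 3 higher. With a block for the replicate number 8 fell and 8 rose, against 8.98% and 9.09% of all genes, the added genes being Bag3, Hspb2 and Pfdn1 as lower and Dnaja1, Dnajb2, Hspa4l and Hspb7 as higher. Without Taf4asKO replicate 2, 3 passed (1 lower, 2 higher), and without Taf4asKO replicate 3, 4 passed (2 lower, 2 higher). Without control replicate 2, 3 were lower and 10 higher, and without Taf4asKO replicate 1, 3 were lower and 4 higher. Counts over all tested genes moved too, from 1246 lower and 1101 higher with all 6 libraries. They were 1489 and 1607 without control replicate 2, and 765 and 484 without Taf4asKO replicate 1. Fewer of all genes also passed without Taf4asKO replicate 2 or 3, as the last section gives. Hspa2, Hspb8, Serpinh1 and Ubb, described next, passed in every alternative run on single genes.

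Of 8 further HSP70 and HSP110 genes, Hspa2, best known from the testis, rose from 444 ± 45.5 to 828 ± 59.2 normalized counts (SD, n = 3, log2 fold change 0.90, limma adjusted p 0.0013), and 7 did not pass. Of 18 HSP70 co-chaperones 0 passed in limma and 0 in limma-voom, with 4 at an unadjusted p under 0.05. The most abundant of them were Bag3, a nucleotide exchange factor and itself heat inducible, with 3339, 2802 and 3014 normalized counts in the control libraries and 2904, 1969 and 1709 in Taf4asKO (-0.51, adjusted p 0.0811, and 0.0099 with the block), and Bag6 (-0.14, adjusted p 0.352). Of 16 HSP90 co-chaperones 4 passed. Fkbp4, which joins HSP90 to steroid receptors, fell from 1566 ± 206 to 1003 ± 75.5 (-0.64, adjusted p 0.00774) and Unc45a, a chaperone of myosin, from 1624 ± 374 to 1057 ± 117 (-0.60, adjusted p 0.0363). The call of Fkbp4 was lost without Taf4asKO replicate 2 (adjusted p 0.0528), and that of Unc45a in 5 of the 6 fits without 1 library (all but the one without control replicate 2) and with total-count scaling (adjusted p 0.0857). Fkbp5, a glucocorticoid-responsive relative of Fkbp4, rose from 238 ± 36.4 to 496 ± 243 (0.96, adjusted p 0.0447), with 776 normalized counts in replicate 3 against 336 and 377 in the others, and Cdc37l1 rose by 0.44 (adjusted p 0.0113). Without that replicate Fkbp5 was at 0.59 (adjusted p 0.0952), and it missed the threshold in 4 of the other 5 such fits, under both scalings and in limma-voom as well. Cdc37l1 missed it without Taf4asKO replicate 2 or 3 (adjusted p 0.0700 and 0.0644).

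Of 6 small heat shock proteins, Hspb8 rose from 66, 54 and 69 to 156, 120 and 131 normalized counts (log2 fold change 1.09, limma adjusted p 0.00548) and 5 did not pass. Its level was thus higher in every Taf4asKO library, opposite to Hspa1a. Of 10 mitochondrial chaperones 0 passed in limma and 0 in limma-voom, with 3 at an unadjusted p under 0.05. Those with the highest means were Hspa9, the mitochondrial HSP70, with a log2 fold change of 0.13 (adjusted p 0.471) and the protease and chaperone Lonp1 at 0.13 (adjusted p 0.36). Of 16 chaperones of the endoplasmic reticulum 1 passed, the collagen chaperone Serpinh1 or HSP47, which fell from 5632 ± 941 to 3399 ± 227 normalized counts (-0.72, adjusted p 0.00535). Of the collagen genes listed here, whose products Serpinh1 serves, Col3a1 had 46225 to 47700 normalized counts in control and 13082 to 17573 in Taf4asKO. Col1a1 differed in the other direction, with 5792, 16979 and 27768 in control and 16932, 32958 and 30693 in Taf4asKO (log2 fold change 0.88, adjusted p 0.249, and 0.00996 with the block). Of 14 subunits of the chaperonin CCT and of prefoldin, Cct5 (-0.49, adjusted p 0.0252) and Cct2 (-0.45, adjusted p 0.0499) fell and 12 did not pass. Cct5 missed the threshold in 4 of the 6 fits without 1 library, and Cct2 in 5 of them, with a pseudocount of 0.1 (adjusted p 0.0542) and in limma-voom (0.0502).

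**Figure D4:**
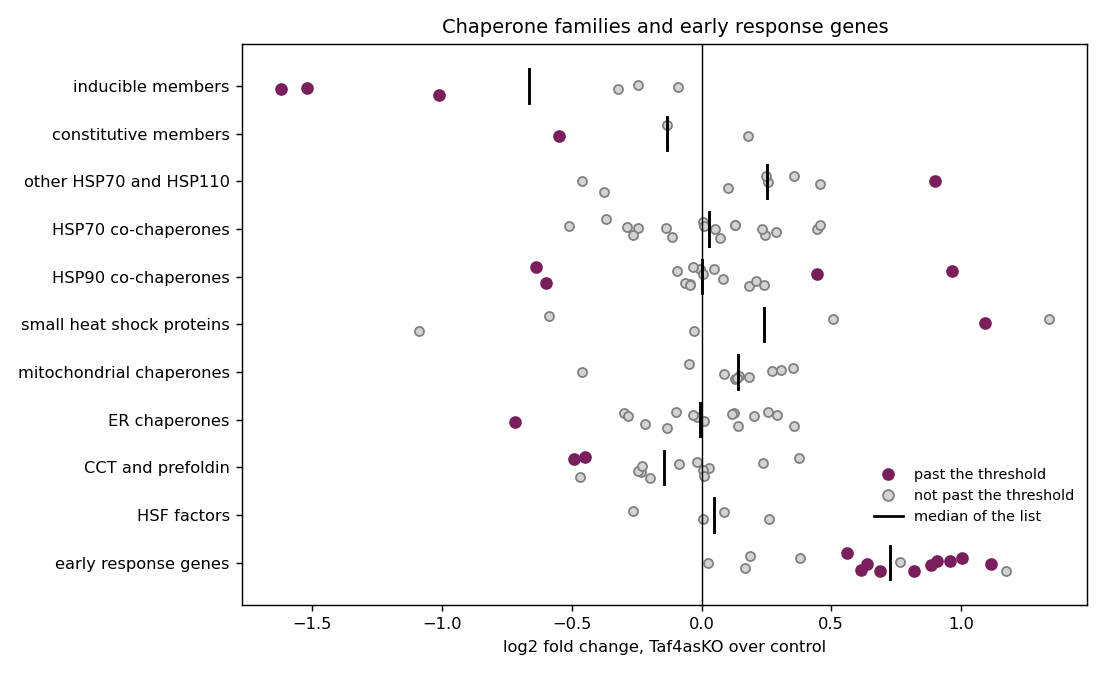
Each point is the log2 fold change, Taf4asKO over control, of one gene of the list named on the vertical axis, in purple where it passed the threshold, and the bar marks the median of the list. Inducible members lie to the left of 0 (median -0.67), other chaperone families scatter around 0, and all 16 early response genes lie to the right of it (median 0.73).

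A list of 18 genes other than the members that are known to respond to HSF1 crosses these families. Of these 2 fell (Serpinh1 and Fkbp4), 2 rose (Hspb8 and the ubiquitin gene Ubb) and 14 did not pass, a share of 22.2% beside the 12.6% of all tested genes, with a median log2 fold change of -0.01. Ubb rose from 2438 ± 124 to 3522 ± 95.7 normalized counts (SD, n = 3, 0.53, limma adjusted p 0.00431). With the replicate block 3 of the 18 were lower and 4 higher, beside 8.98% and 9.09% of all genes.

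Early response genes, known to be induced by enzymatic release too, were read beside the heat shock genes. Of 16 listed, 10 rose and 0 fell, against 5.93% and 6.71% of all tested genes, and 12 had all Taf4asKO libraries above all controls, against 16.6%. With the replicate block 12 rose, against 9.09%, the added genes being Atf3 (log2 fold change 1.17) and Nr4a1. The largest rises past the threshold were those of Zfp36, which encodes an mRNA decay factor (10823 to 13960 normalized counts in control and 22992 to 36779 in Taf4asKO, log2 fold change 1.12, limma adjusted p 0.00372), Klf4 (from 4224 ± 1179 to 8554 ± 3045, SD, n = 3, adjusted p 0.0269), the MAP kinase phosphatase gene Dusp1 (0.96, adjusted p 0.000998) and Junb (0.91, adjusted p 0.00191). The group with less Hspa1a, Hspa1b and Hsph1 was thus the one with more of these genes. The call of Klf4 was lost in 4 of the 6 fits without 1 library (adjusted p up to 0.0828) and with total-count scaling (0.0536). Taf4asKO replicate 1 was the highest of its group for 15 of the 16, as it was for all members, and without it 6 genes rose. Control replicate 2 was the lowest of its group for 13 of the 16, against 33.5% of all tested genes, and without it 9 rose. With a fold limit of 2, 2 genes rose. Of all tested genes 1101 rose in the main fit, 484 without Taf4asKO replicate 1, 1607 without control replicate 2 and 330 with the fold limit of 2.

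**Figure D5:**
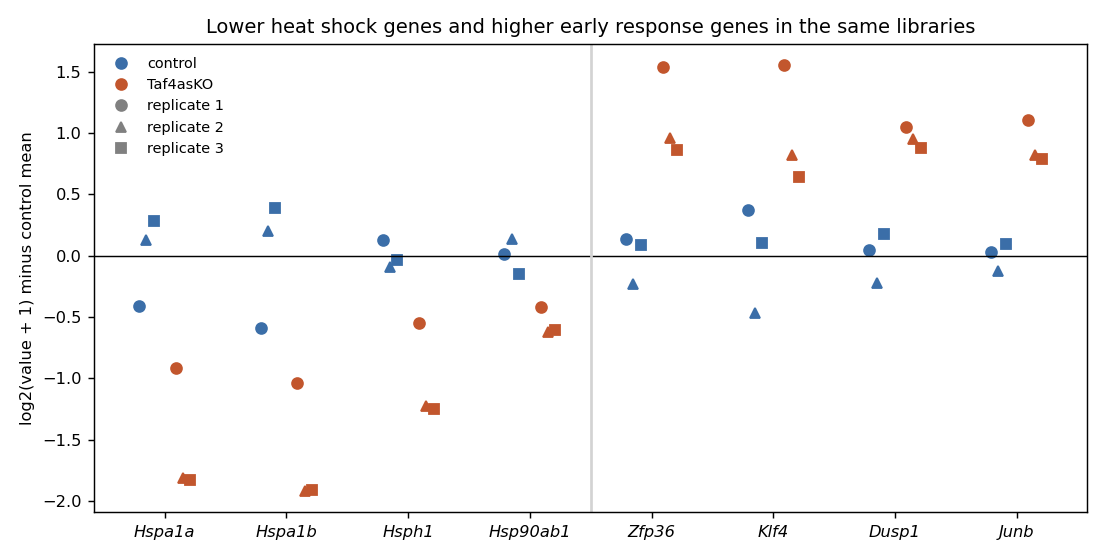
The vertical axis gives log2(value + 1) minus the mean of the control libraries, with control in blue, Taf4asKO in orange and replicates 1 to 3 as circle, triangle and square. The 4 heat shock genes on the left are lower and the 4 early response genes on the right higher in all 3 Taf4asKO libraries, and replicate 1 (circle) is the highest Taf4asKO library for all 8.

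Genes outside these lists with a pattern most like that of the inducible members over the 6 libraries were sought by Pearson correlation with the mean of their standardized log2 values. Of 10440 candidates, all with means of 50 or more, the highest values were those of Nln (0.986), Dact3 (0.975), Borcs7 (0.974), Inpp5e (0.973) and Syt17 (0.973), and 15 exceeded 0.95. These are descriptions over 6 libraries that share the groups. The closest, Nln, had 296, 304 and 316 normalized counts in the control libraries and 295, 267 and 253 in those of Taf4asKO, a much smaller range than that of the heat shock genes.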

How the data were processed

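RNA-seq libraries of 6 samples (3 control, 3 Taf4asKO) were analysed from 1 deposited table of gene values. According to the methods and the submitters' processing notes, the single-end reads were trimmed (Trimmomatic 0.39) and aligned by the authors to mm10 (STAR 2.6.0c), who then removed reads with several alignments, counted reads over exons with featureCounts 1.6.0 without those overlapping several genes, and normalized with DESeq2 1.14.1. The strand setting of the counting is not given in the sources used here. The deposited values are a score: reads after division by each library's size factor, rounded to whole numbers, as inferred from whole numbers that some columns skip (9 of those up to 60 in control replicate 1). They are called normalized counts. Reads before scaling were not used. At the lowest member value of 220, counting error alone would be about 6.74% if 1 normalized count were 1 read.

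Genes with a mean of at least 5 were tested with limma 3.58.1 (R 4.3.3, lmFit and eBayes with trend, two-sided), without covariates, on log2(value + 1), following the groups and limits of the study. The fit was tested on simulated data. Ratios used an exact permutation test. The members, the gene lists and the rule for named genes (all members, and per list at most the 4 largest changes past the threshold or the 2 most abundant genes) were chosen with earlier results of these data known. Alternatives for the early response genes and for named genes that are no member were added once the data had been seen.

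Replicate numbers come from the titles. Deviations from the group mean correlated across genes at 0.235, 0.126 and 0.150 for same-numbered libraries and at -0.149 to 0.014 for the others. Such deviations cancel within a group, which ties these values to each other, and the titles state no pairing. As the same-numbered values were each above 0.1, the numbers were taken to pair the samples. A fit with the number as a block was made beside the main one. P-values measure the spread between these libraries, which may in part be technical. GENCODE M21 (mm10) held 99.8% of the table's identifiers, and exon lengths, overlaps and transcripts were taken from it, while gene positions are those of the table. Promoters are from RefSeq (GRCm38.p6). Figures were drawn with matplotlib 3.10.9.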

Additional observations from a re-analysis of the deposited data

How the results depend on the processing

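Of the 4 members past the threshold, Hspa1a, Hspa1b and Hsph1 kept their direction and their call in all 14 alternatives run on single genes, and all 4 did so with the replicate block, both scalings, both pseudocounts, both filters and limma-voom. The block changed the call of no member and ended the call of no other gene named as past the threshold, and the genes it added among the chaperones, the markers and the early response genes are named above. Leaving out 1 library gave 3 to 5 members, all lower. The ranges of the log2 fold change over these 6 fits were -1.82 to -1.37 for Hspa1a, -1.91 to -1.43 for Hspa1b, -1.24 to -0.89 for Hsph1, -0.62 to -0.48 for Hsp90ab1, -0.42 to -0.14 for Hsp90aa1, -0.50 to -0.17 for Hspb1 and 0.045 to 0.26 for Hspa8. Values near 0 changed sign, from -0.36 to 0.077 for Dnajb1, from -0.28 to 0.069 for Hspd1 and from -0.17 to 0.0068 for Hsf1. With a fold limit of 2, 3 members passed.

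For all genes the fold limit of 2 gave 850 (520 lower, 330 higher) and the replicate block 1688 higher. Leaving out 1 library gave 956 to 3096 genes (595 to 1489 lower, 350 to 1607 higher). Of the other chaperone genes the fold limit of 2 left 1 (0 lower, 1 higher), the block gave 16 (8 lower, 8 higher), and leaving out 1 library 3 to 13 (1 to 5 lower, 2 to 10 higher). The 3 fits without a Taf4asKO library gave 956 to 1249 genes in all, and those without a control library 1710 to 3096. The cause was not tested. Of the early response genes 2 passed at the fold limit of 2, and 6 to 10 when 1 library was left out. All 3 ratios kept their direction in all alternatives (log2 differences from 0.19 to 0.38 for Hsp90aa1 to Hsp90ab1, from 0.05 to 0.19 for Hspa1a to Hspa1b, the highest without control replicate 1 and the lowest without control replicate 3, and from -2.04 to -1.50 for Hspa1a plus Hspa1b to Hspa8), in a design whose exact p cannot pass 0.05 (0.1 at best, 0.25 with the replicate block of sign flips). The scalings moved the median of all genes to 0.003 and -0.03. Depth is no limit for members whose lowest value is 220 normalized counts, while reads shared between paralogs are one.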
